A study of Mus musculus with 6 samples.

Results

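The fibroblast growth factors (FGF), platelet-derived growth factors (PDGF), the epidermal growth factor (EGF) family with the neuregulins, and hepatocyte growth factor (HGF) were examined together with their receptors in mouse lung endothelial cells (ECs). Members were all genes whose symbol is that of a ligand or a receptor of these families, 50 of the 24063 symbols in the count tables, of which 38 were ligands and 12 were receptors. RNA was sequenced from ECs isolated with anti-CD31 magnetic beads from lungs of male C57BL6 mice, which carried no other allele or treatment. There were 3 libraries from sham-operated mice and 3 libraries from lungs taken 7 days after left unilateral pneumonectomy (PNX), the removal of 1 lung, each library pooled from 2 mice. The labels gave the age as 8 weeks, while the study's methods give an older range for PNX. Replicates 1 and 2 of both groups carry a label as re-used and are called the earlier deposit, and replicate 3 of each group the later deposit.

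FGF, PDGF, EGF family ligands and HGF are secreted or cell-bound proteins that activate receptor tyrosine kinases, and these receptors signal through the adaptor GRB2, RAS and the kinases RAF, MEK and ERK. The pathway is held back by feedback genes such as the Sprouty genes and Dusp6, and its ETS-family targets include Etv4 and Etv5. In the lung, Fgf7 and Fgf10 are mesenchymal ligands that act on the epithelial form of Fgfr2, Pdgfb is made by ECs and acts on Pdgfrb of pericytes, Pdgfra marks fibroblasts, and Hgf is made by mesenchymal cells and ECs and acts on Met.

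Total counts were 72198617 and 81282871 in the sham libraries of the earlier deposit, 65763553 and 74382176 in the PNX ones, and 33374216 and 29526989 in replicate 3 of sham and PNX. Replicates 1 and 2 of a group differed by little more than counting error, with a chi-square per degree of freedom of 1.75 in sham and 1.57 in PNX, against 67.9 to 86.4 for pairs with replicate 3, and were summed to 1 sample, so that each mean ± SD has n = 2. The summed CPM (counts scaled to library size, TMM-normalised) of 10 endothelial markers was 9267 to 11279 in sham and 8420 to 9550 in PNX libraries. Markers of other cell types were also present, and no marker that was in the files was at 0 in all 6 libraries. The sum of 10 alveolar epithelial markers was 7123 to 9258 CPM in sham and 2507 to 6367 in PNX, that of 8 airway epithelial markers 2635 to 4676 and 1250 to 1320, and that of 10 fibroblast genes 1395 to 1664 and 4251 to 5382. In the fit with a replicate block, at an adjusted p under 0.01 and more than 1 on the log2 scale, 4 of 7 mesothelial, 4 of 8 macrophage and 3 of 8 mast cell and basophil markers were higher in PNX (3.89% of all genes), and 7 of 10 lymphocyte markers were lower at an adjusted p under 0.05 (10.1%). Their summed CPM was 271 to 540 in sham and 455 to 1052 in PNX for mesothelial, 2299 to 4240 and 3119 to 4133 for macrophage, 40.6 to 91.1 and 44.8 to 91.04 for mast cell and basophil, and 114 to 171 and 70.5 to 102 for lymphocyte markers.

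Among the ligands, Fgf23 was higher after PNX, and among the receptors Erbb3 was lower. Whether either was called turned on the fit. Calls needed both an adjusted p below 0.01 and a log2 fold change beyond 1 in either direction. With edgeR on the 4 samples without a block, 0 of 16598 genes tested (0%) and 0 of 37 members tested were called. An unadjusted p under 0.05 was reached by 2076 genes (12.5%) and 5 members. With limma-voom 0 members were called. DESeq2, run without the filter on low counts, called 587 of 19812 genes (2.96%, with 2.51% higher and 0.449% lower). Fgf23 and Erbb3 were among them. With the deposit as a replicate block, edgeR called 849 of 16598 genes (5.12%), of which 645 (3.89%) were higher and 204 (1.23%) lower in PNX. It called 2 members, Fgf23 and Erbb3. With the 6 libraries as separate replicates, Fgf23 was the only member called in each of 3 fits. In edgeR 409 of 16263 genes were called (2.51%, with 2.28% higher and 0.24% lower). In DESeq2 they were 927 of 19809 (4.68%, with 3.47% higher and 1.21% lower). In edgeR with the block they were 920 of 16263 (5.66%, with 4.33% higher and 1.32% lower). The median log2 fold change of the 37 members tested was -0.05, that of all genes -0.01. It was 0.02 for 26 ligands, of which 15 had a positive value, and -0.15 for 11 receptors, of which 2 had a positive value. Of all 16598 genes tested, 7972 had a positive and 8626 a negative value.

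At a looser threshold, an adjusted p under 0.05 at any fold change, chosen after the values were seen, the fit with the block passed 3584 genes (21.6%) and 11 of the 37 members. Of these, 4 were higher after PNX (Fgf23, Fgfr1, Ereg and Egfr, against 11.5% of all genes) and 7 were lower (Fgf7, Fgf10, Fgfr2, Fgfr4, Pdgfra, Erbb3 and Hgf, against 10.1%). With 3 other scalings of the libraries (DESeq2 size factors, upper quartile and library size alone), 7, 8 and 7 members passed, against 19.3%, 20.2% and 19.6% of all genes (10.6%, 10.7% and 11.1% higher; 8.65%, 9.54% and 8.5% lower). Fgf7, Fgf10 and Pdgfra passed with none of the 3, and Fgfr4 with upper-quartile scaling alone. In 5 members all 3 PNX libraries lay above all 3 sham libraries, against 18.8% of all genes, and in 6 all lay below, against 17.9% (36.7% in either direction). No excess of members is read from these counts.

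**Figure D1:**
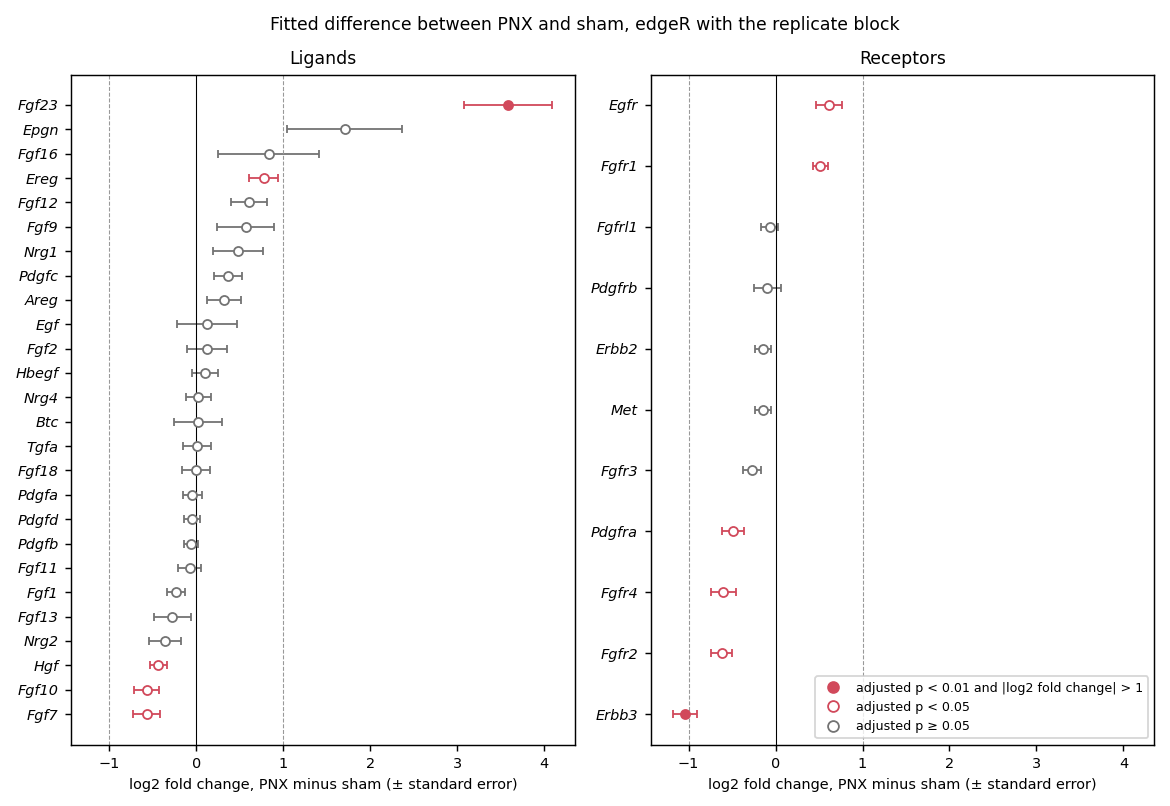
Fitted log2 fold change (PNX minus sham, horizontal axis) ± standard error of 26 ligands (left) and 11 receptors (right) from edgeR with the replicate block on 4 samples; dashed lines mark a log2 fold change of -1 and 1. Only Fgf23 at 3.58 and Erbb3 at -1.04 passed both thresholds (filled points); 9 other members passed an adjusted p of 0.05 (open red points).

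Fgf23, the hormone that lowers phosphate and vitamin D and is made chiefly by bone cells, had the highest fold change of the members tested. It lies on chromosome 6 at 127072902 to 127082296 (GRCm38.p6, plus strand), with no exon of another annotated gene over its exons. It starts 48.2 kb past the end of Fgf6, which had 0 counts in all libraries. The 250 bases before its start are shown because Fgf23 is the only called member with a promoter entry in the RefSeq table used (GRCm38.p6, chr6:127072652-127072901, plus strand, 5′ to 3′):

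Fgf23 promoter: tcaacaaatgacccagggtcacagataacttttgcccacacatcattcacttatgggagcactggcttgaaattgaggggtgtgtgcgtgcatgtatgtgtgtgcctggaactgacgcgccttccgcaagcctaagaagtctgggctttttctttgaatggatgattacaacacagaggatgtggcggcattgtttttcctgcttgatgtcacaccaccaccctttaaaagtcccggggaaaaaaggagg

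No letters are in capitals because no exact match to the 4 motifs, searched on both strands, was in this window, so that no matches overlapped. Variants of these motifs were not searched. They were an ETS motif (CCGGAA), which 12.03% of 32851 promoters of the same length hold, an AP-1 motif (TGANTCA, 6.75%), a cAMP response element (TGACGTCA, 1.55%) and a TATA box (TATAAA, 12.37%). Its GC content was 48.4%, against a median of 52.4% over all promoters.

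Fgf23 had 4, 1 and 2 counts in the sham libraries and 32, 28 and 20 counts in the PNX libraries. The groups did not overlap, and the sham libraries stood at or near 0. The level was 0.0461 ± 0.0181 CPM (SD, n = 2) in sham and 0.552 ± 0.178 CPM in PNX. The ratio of the summed counts, corrected for library size, was 12.5 (exact 95% interval 5.80 to 32.1, counting error only), and it was 13.1 in the earlier deposit (5.30 to 41.7) and 11.3 in the later one (2.74 to 99.6). The fitted log2 fold change was 3.70 ± 0.61 (SE) with an edgeR adjusted p of 0.116, the lowest of the members, and 3.58 ± 0.51 with an adjusted p of 0.00338 with the replicate block. With the block, the call was lost without sham replicate 2 (adjusted p = 0.0105) and without PNX replicate 1 (adjusted p = 0.0144). At its highest the level was under 1 CPM. Kl, the co-receptor through which FGF23 acts, had 2.03, 1.56 and 1.51 CPM in the sham libraries and 1.33, 1.01 and 0.905 in the PNX ones and did not pass (adjusted p = 0.0876 with the block).

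**Figure D2:**
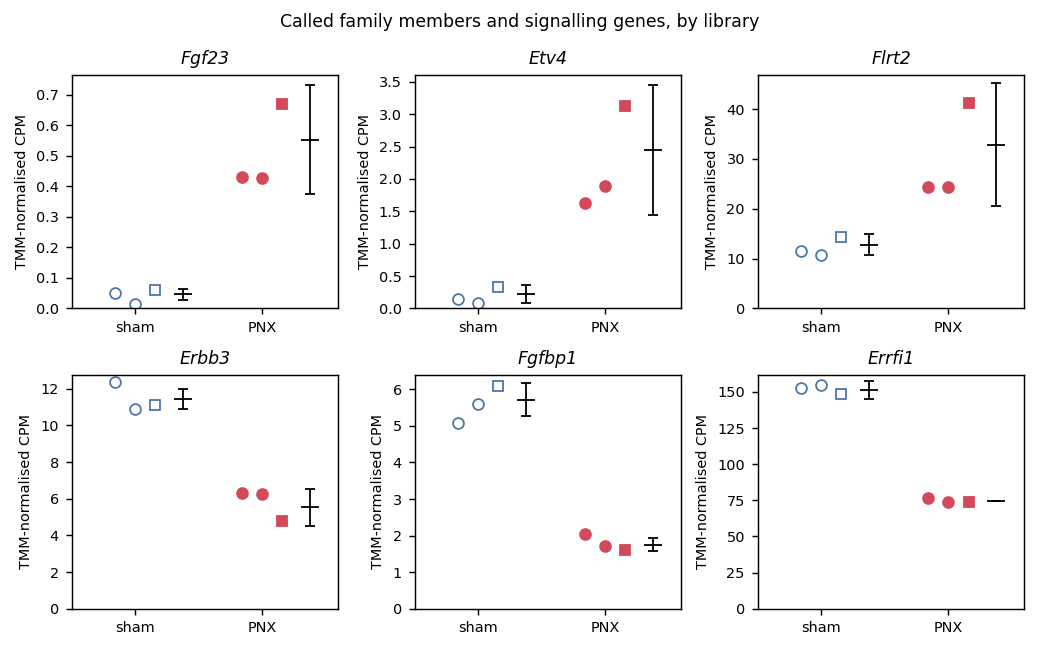
TMM-normalised CPM (vertical axes, from 0) of the 2 called members, Fgf23 and Erbb3, and 4 called signalling genes in the sham (open blue) and PNX (filled red) libraries; circles are replicates 1 and 2, squares replicate 3, and black marks the mean ± SD of 2 samples per group. The groups did not overlap in any panel: Fgf23, Etv4 and Flrt2 were higher in PNX, and Erbb3, Fgfbp1 and Errfi1 lower.

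Among the other FGF ligands, Fgf1, which binds all FGF receptors, had the highest level, with a mean TPM (a level scaled for transcript length and library) of 60.5 over the 6 libraries. Its CPM was 117, 117 and 78.5 in sham and 88.8, 89.9 and 74.8 in PNX. The lowest sham library lay among the PNX libraries, so the groups overlapped, and the log2 fold change was -0.26 ± 0.24 (adjusted p = 0.761, and 0.161 with the block). Fgf11, an intracellular FGF that binds no FGF receptor, had 11.5, 10.6 and 9.98 CPM in the sham libraries and 11.0, 13.0 and 8.11 in the PNX ones, with overlap (log2 fold change -0.07 ± 0.24).

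Fgf7 and Fgf10 are named here after their values were seen. Fgf7 had 13.3, 13.6 and 8.32 CPM in the sham libraries and 10.9, 10.7 and 4.43 in the PNX ones. Fgf10 had 13.4, 12.3 and 9.03 CPM in the sham libraries and 10.1, 10.001 and 4.996 in the PNX ones. Both were lower after PNX within each deposit, while the groups of 3 overlapped because the later deposit was lower in both groups. With the block their log2 fold changes were -0.57 ± 0.15 (adjusted p = 0.0394) and -0.57 ± 0.14 (adjusted p = 0.0314). Of the 11 FGF ligands tested, 6 had a positive and 5 a negative log2 fold change, against 7972 and 8626 of all genes tested.

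A further 11 of the 22 FGF ligands were too low to test. Fgf4 and Fgf6 had 0 counts in all libraries, as did the neuregulin Nrg3, which allows up to 0.00844 CPM for each. Fgf3, Fgf5, Fgf8, Fgf14, Fgf15, Fgf17, Fgf20, Fgf21 and Fgf22 had between 1 count and 34 counts over the 6 libraries, the highest in Fgf14. These genes are known mainly from the embryo, the brain, the gut or the liver. The neighbours Fgf3, Fgf4 and Fgf15 on chromosome 7, within 62.3 kb, were all among those not tested.

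**Figure D3:**
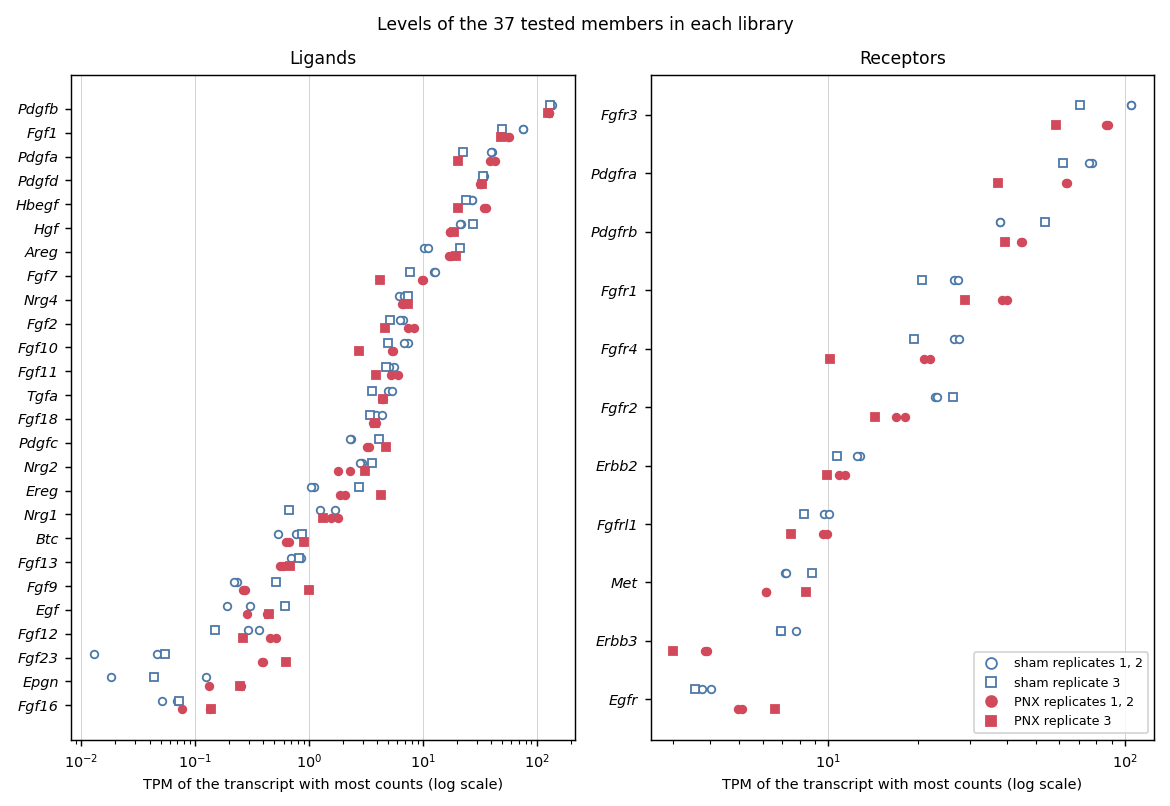
Deposited TPM of the transcript with most counts (horizontal axis, log scale) for 26 ligands (left) and 11 receptors (right) in each library; open blue symbols are sham, filled red symbols PNX, circles replicates 1 and 2, squares replicate 3. Pdgfb led the ligands with a mean of 130 TPM and Fgfr3 the receptors with 85.4, and for most genes the symbols of both groups lie together.

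The FGF receptors moved apart. Fgfr1 was higher and Fgfr2 and Fgfr4 lower after PNX at the looser threshold, and Fgfr3 and Fgfrl1 did not pass. By mean TPM the order was Fgfr3 at 85.4, Fgfr1 at 30.3, Fgfr4 at 21.1, Fgfr2 at 20.3 and Fgfrl1 at 9.16. The TPM ranges of Fgfr1, Fgfr2 and Fgfr4 overlapped in the sham libraries. The CPM of Fgfr1, Fgfr2, Fgfr3 and Fgfrl1 was summed over 2 to 5 transcripts that can share reads, and so cannot be set against that of genes with 1 transcript.

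Fgfr1, the main mesenchymal and endothelial FGF receptor, had 157, 162 and 125 CPM in the sham libraries and 234, 242 and 170 in the PNX ones. Every PNX library lay above every sham library. The log2 fold change was 0.52 ± 0.23 (adjusted p = 0.465) and 0.52 ± 0.08 with the block (adjusted p = 0.00596), under the fold threshold. Fgfr2, whose epithelial form binds FGF7 and FGF10, had 93.4, 95.0 and 108 CPM in the sham libraries and 75.6, 70.6 and 58.2 in the PNX ones. Every PNX library lay below every sham library, and the log2 fold change was -0.62 ± 0.17 (adjusted p = 0.246; 0.0112 with the block).

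Fgfr4 had 33.0, 34.3 and 24.5 CPM in the sham libraries and 27.9, 26.8 and 12.5 in the PNX ones. The groups overlapped, with PNX lower within each deposit (log2 ratio -0.32 in the earlier and -0.94 in the later one; adjusted p = 0.683, and 0.0268 with the block). Fgfr3 had 876, 880 and 602 CPM in the sham libraries and 739, 747 and 490 in the PNX ones. It was lower by -0.27 on the log2 scale in both deposits but did not pass (adjusted p = 0.804, and 0.105 with the block). Fgfrl1, a receptor without a kinase domain, had 19.8, 20.7 and 17.2 CPM in the sham libraries and 20.1, 20.8 and 15.4 in the PNX ones, with overlap (log2 fold change -0.06 ± 0.21).

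Pdgfb, the EC ligand that recruits pericytes, had the highest TPM of all members, 131 to 137 in the sham and 127 to 128 in the PNX libraries. Its CPM was 154, 159 and 154 in sham and 151, 152 and 147 in PNX. The groups did not overlap, yet the difference was small, a log2 fold change of -0.06 ± 0.13 (adjusted p = 0.915, and 0.650 with the block). Pdgfd, which also acts on Pdgfrb, had 24.6, 23.8 and 24.4 CPM in the sham libraries and 23.5, 23.3 and 23.6 in the PNX ones, a log2 fold change of -0.05 ± 0.13 (adjusted p = 0.940). Pdgfb and Pdgfd were 2 of 4 members whose log2 ratio lay within 0.1 of 0 in both deposits.

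Pdgfa, a ligand of Pdgfra, differed between the deposits more than between the groups. It had 16.4, 16.05 and 9.21 CPM in the sham libraries and 15.9, 17.7 and 8.22 in the PNX ones (log2 fold change -0.03 ± 0.45). Pdgfra had 399, 390 and 323 CPM in the sham libraries and 338, 335 and 192 in the PNX ones. It was lower after PNX in each deposit, with overlap between the groups of 3, and the log2 fold change was -0.45 ± 0.30 (adjusted p = 0.651) and -0.49 ± 0.13 with the block (adjusted p = 0.0326). Pdgfrb, the pericyte receptor, had 162, 162 and 233 CPM in the sham libraries and 197, 194 and 168 in the PNX ones. It was higher after PNX in the earlier deposit (log2 ratio 0.25) and lower in the later one (-0.45), and did not pass (adjusted p = 0.899).

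Of the 10 fibroblast genes, a list that includes Pdgfra itself, 8 were higher with the block at an adjusted p under 0.05 (11.5% of all genes) and 5 of them were called higher (3.89%), the collagen genes Col1a1, Col1a2 and Col3a1 with Dcn and Lum. Pdgfra alone was lower at that threshold, and it no longer passed with any of the 3 other scalings. Tcf21, a fibroblast transcription factor, had a log2 fold change of the same sign as Pdgfra, -0.23 and -0.34 with the block. Its log2 ratio was -0.01 in the earlier deposit and -0.75 in the later one, and it did not pass (adjusted p = 0.182 with the block). Of 10 pericyte and smooth muscle genes, with Pdgfrb among them, 1 (Rgs5) was called higher, and their sum was 460 to 599 CPM in sham and 433 to 600 in PNX. The part of these cells in the values of Pdgfra, Pdgfrb, Fgf7, Fgf10 and Hgf was not tested, and in bulk RNA fewer cells of a type and less RNA per cell cannot be told apart.

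In the EGF family, the receptors Egfr and Erbb3 differed in opposite directions. Erbb3, which has little kinase activity of its own and signals with Erbb2 on binding neuregulins, lies on chromosome 10 at 128567523 to 128589635 (GRCm38.p6, minus strand). It had 12.4, 10.9 and 11.1 CPM in the sham libraries and 6.34, 6.24 and 4.76 in the PNX ones, a mean of 11.4 ± 0.555 against 5.53 ± 1.02 (SD, n = 2). Every PNX library lay below every sham library. The log2 fold change was -1.04 ± 0.21 (adjusted p = 0.163) and -1.04 ± 0.13 with the block (adjusted p = 0.00227). The value lies just past the fold threshold: with the 6 libraries as separate replicates it was -0.98 (adjusted p = 0.00953) and was not called. With the block, the call was also lost without sham replicate 1 (log2 fold change -0.98) and without PNX replicate 1 (adjusted p = 0.0123).

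Egfr, the receptor of EGF, amphiregulin and TGF-alpha, had 12.9, 13.9 and 12.2 CPM in the sham libraries and 17.5, 17.1 and 22.8 in the PNX ones. Every PNX library lay above every sham library, with a log2 fold change of 0.65 ± 0.20 (adjusted p = 0.312) and 0.61 ± 0.15 with the block (adjusted p = 0.0250). Erbb2, the partner that binds no ligand, had 25.2, 24.7 and 21.4 CPM in the sham libraries and 21.9, 23.1 and 19.5 in the PNX ones, and did not pass (log2 fold change -0.15 ± 0.17). Its exons overlap those of Mien1 on the other strand. Erbb4, a receptor of neuregulins, had 0 to 5 counts per library and was not tested.

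Erbb3, Fgfr2 and Fgfr4 are receptors that epithelial cells carry, and epithelial markers were lower too. Epithelial cells also carry Egfr, Erbb2 and Met. With the block Egfr was higher (log2 fold change 0.61, adjusted p = 0.0250). Erbb2 (-0.14, adjusted p = 0.306) and Met (-0.15, adjusted p = 0.324) did not pass. All 10 alveolar epithelial markers were lower after PNX with the block at an adjusted p under 0.05, against 10.1% of all genes, and 4 of them were called lower, against 1.23%. All 8 airway epithelial markers were also lower at that threshold, and 6 were called. In all 8 airway and in 6 alveolar markers every PNX library lay below every sham library, against 17.9% of all genes. The alveolar markers Ager, Hopx, Aqp5 and Rtkn2 overlapped between the groups, though each was lower within each deposit. Sftpc, the surfactant gene of alveolar type 2 cells, had 2338 to 2529 CPM in sham and 812 to 1526 in PNX. The part of epithelial cells in the values of all these receptors was not tested. Of the cell types with markers called higher in PNX, the mesothelial gene Wt1 had a log2 fold change of 2.57 ± 0.12 with the block. That of the macrophage gene C1qa was 2.49 ± 0.15 and that of the mast cell gene Tpsb2 5.38 ± 0.34. Not every marker of these types was higher. Of 8 mast cell and basophil markers, 4 were higher and 1, Ms4a2, lower (-0.70 ± 0.17, adjusted p = 0.0242) at the looser threshold with the block. The macrophage gene Lyz2 did not pass (-0.007, adjusted p = 0.980 with the block). The part of these cells in the higher values of Fgf23, Fgfr1, Egfr, Ereg, Etv4 and Flrt2 was not tested either.

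Among the EGF family ligands, Hbegf, the heparin-binding form, had the highest level, a mean of 28.2 TPM. It had 25.3, 25.3 and 23.0 CPM in the sham libraries and 33.5, 34.6 and 19.1 in the PNX ones. It was higher after PNX in the earlier deposit and lower in the later one, and did not pass (adjusted p = 0.919). Epgn, Ereg, Areg and Btc, ligands of Egfr, lie side by side within 375.5 kb on chromosome 5 (GRCm38.p6, 91027517 to 91402994), and are named after their values were seen. Ereg had 1.81, 1.72 and 4.57 CPM in the sham libraries and 3.50, 3.11 and 7.04 in the PNX ones. It was higher within each deposit, with a log2 fold change of 0.73 ± 0.60 (adjusted p = 0.717) and 0.77 ± 0.17 with the block (adjusted p = 0.0181).

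Areg, its neighbour, had 4.90, 5.29 and 10.1 CPM in the sham libraries and 8.18, 8.60 and 9.19 in the PNX ones. It was higher in the earlier deposit (log2 ratio 0.69) and slightly lower in the later one (-0.11), and did not pass (adjusted p = 0.289 with the block). Epgn had 8 counts over the sham and 24 over the PNX libraries, a ratio of 3.29 (exact 95% interval 1.43 to 8.46, counting error only) and an adjusted p of 0.110 with the block. Btc lay within 0.1 of 0 on the log2 scale in both deposits. Of the 10 EGF family ligands tested, 8 had a positive log2 fold change, against 7972 of all 16598 genes tested. At the looser threshold with the block 1 of them, Ereg, was higher, against 11.5% of all genes.

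Hgf had 105, 103 and 137 CPM in the sham libraries and 86.8, 85.3 and 90.1 in the PNX ones. Every PNX library lay below every sham library, and the log2 fold change was -0.45 ± 0.17 (adjusted p = 0.402) and -0.44 ± 0.09 with the block (adjusted p = 0.0175). Met, its receptor, had 18.8, 18.9 and 23.6 CPM in the sham libraries and 16.6, 16.5 and 22.0 in the PNX ones. It overlapped between the groups and did not pass (log2 fold change -0.13 ± 0.22, adjusted p = 0.879).

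Within the deposits, 27 of the 37 members tested had the same direction in both and 10 had opposite directions, among them Pdgfa, Pdgfrb, Hbegf, Fgf11 and Areg. The share of all genes with the same direction was not computed, so no agreement particular to the members is read from this. The 18 tested members that fell outside the rule for a full description had log2 fold changes without the block from -0.54 (Fgf10) to 1.77 (Epgn).

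**Figure D4:**
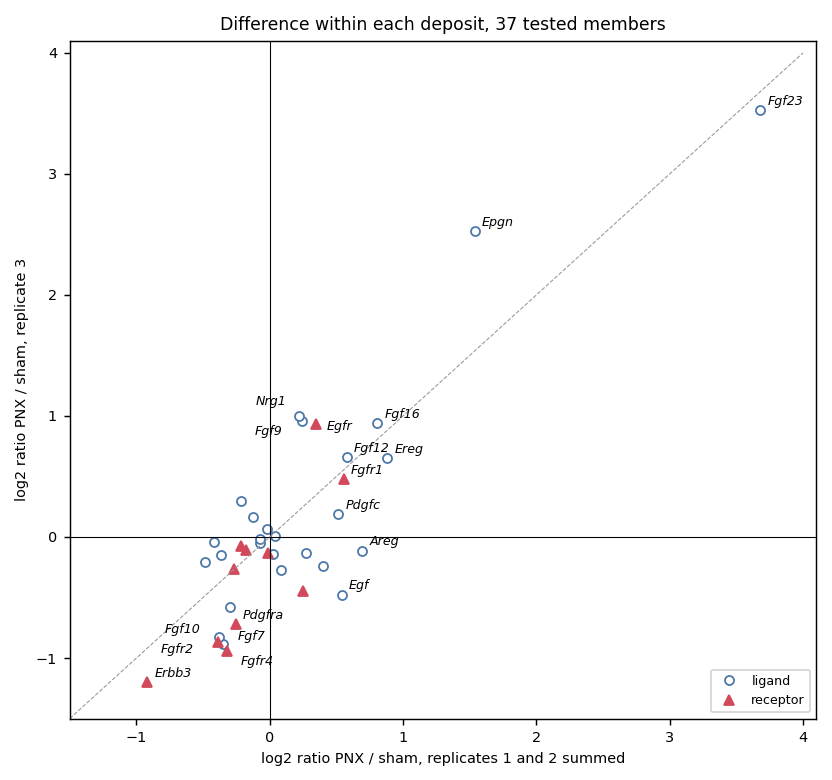
Log2 ratio of PNX over sham in the earlier deposit (replicates 1 and 2 summed, horizontal axis) and in the later deposit (replicate 3, vertical axis) for 37 members, ligands as open circles and receptors as red triangles; the dashed line marks equal ratios. Fgf23 lies near the line at 3.68 and 3.52 and Erbb3 at -0.92 and -1.20, while 10 members lie in the quadrants of opposite sign.

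The genes that bind, restrain or carry the signals were then read from the same fit, 70 genes in 5 lists of which 69 were tested. Without the block 0 were called by edgeR. With the block 4 were called (2 higher and 2 lower), against 5.12% of all genes (3.89% and 1.23%). An adjusted p of 0.05 was passed by 16 (6 higher and 10 lower), against 21.6% (11.5% and 10.1%). Whether these 16 pass that looser threshold with the other scalings was not examined. Of all 69, 26 had a positive and 43 a negative log2 fold change, with a median of -0.11. Of all genes tested, 7972 had a positive and 8626 a negative one. The part of epithelial and other cell types in the values of these signalling genes, higher or lower, was not tested.

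Of the 19 genes tested in the list of FGF cofactors and feedback, 2 were called higher and 1 lower. The shares of all genes were 3.89% and 1.23% with the block. Etv4, an ETS factor downstream of FGF receptors, had 29 counts over the sham and 338 over the PNX libraries. Its CPM was 0.149, 0.0837 and 0.327 in sham and 1.63, 1.89 and 3.12 in PNX. The ratio was 12.8 (exact 95% interval 8.73 to 19.4, counting error only), and the log2 fold change 3.64 ± 0.65 (adjusted p = 0.132) and 3.61 ± 0.31 with the block (adjusted p = 0.000354). Etv5, a close relative named after its values were seen, was lower: it had 44.3, 43.5 and 45.1 CPM in the sham libraries and 30.7, 32.6 and 24.1 in the PNX ones (log2 fold change -0.68 ± 0.11 and adjusted p = 0.00563 with the block).

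Flrt2, a membrane protein that can bind FGF receptors, had 11.5, 10.8 and 14.4 CPM in the sham libraries and 24.3, 24.3 and 41.2 in the PNX ones (log2 fold change 1.36 ± 0.31, adjusted p = 0.191; 1.30 ± 0.12 and 0.000559 with the block). Fgfbp1, which releases FGFs bound to the matrix, had 5.09, 5.61 and 6.09 CPM in the sham libraries and 2.05, 1.71 and 1.61 in the PNX ones (log2 fold change -1.70 ± 0.24, adjusted p = 0.0926; -1.67 ± 0.18 and 0.00114 with the block). In both genes the groups did not overlap. Dusp6, the ERK phosphatase and the gene with the highest CPM of this list, had 205, 207 and 126 CPM in the sham libraries and 157, 160 and 105 in the PNX ones, and passed the looser threshold with the block (log2 fold change -0.32 ± 0.09, adjusted p = 0.0377). Spry1, named after its values were seen, was lower too (-0.76 ± 0.09, adjusted p = 0.00171 with the block), while Spry2, Spry3 and Spry4 did not pass. Spred3, another inhibitor of the pathway named after its values were seen, was higher, with 2.43, 2.92 and 3.45 CPM in sham against 4.04, 4.57 and 6.97 CPM in PNX (log2 fold change 0.83 ± 0.17, adjusted p = 0.0154 with the block). In all, 3 of the 19 genes of this list were higher and 5 lower at the looser threshold with the block. Over all genes, 11.5% were higher and 10.1% lower.

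Of 12 genes that release EGF ligands or control the receptors, 1 was called lower with the block, against 1.23% of all genes. Errfi1, an inhibitor that binds the kinase domain of EGFR, had 153, 155 and 148 CPM in the sham libraries and 76.5, 73.6 and 73.6 in the PNX ones. The groups did not overlap, and the log2 fold change was -1.02 ± 0.13 (adjusted p = 0.0782) and -1.02 ± 0.08 with the block (adjusted p = 0.000212), just past the fold threshold. Adam17, the protease that releases many EGF ligands, had the highest summed CPM of this list, though its mean TPM (41.4) was below that of Errfi1 (94.2). Adam17 had 339, 332 and 359 CPM in the sham libraries and 392, 392 and 405 in the PNX ones. It did not pass (adjusted p = 0.171 with the block).

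Of 12 genes that activate or restrain PDGF and HGF, 0 were called by edgeR with or without the block. At the looser threshold with it (11.5% higher and 10.1% lower over all genes), 2 of the list were higher and 1 lower. These were Plat and Plau, the plasminogen activators, and Spint2, an inhibitor of the proteases that activate HGF, all named after their values were seen, with log2 fold changes of 0.62 ± 0.09, 0.43 ± 0.09 and -0.57 ± 0.10 (adjusted p = 0.00386, 0.0141 and 0.00825). Furin had the highest summed CPM of this list, though its mean TPM (76.0) was below that of Plaur (177). Furin had 214, 214 and 281 CPM in the sham libraries and 241, 245 and 320 in the PNX ones and did not pass. Of 16 genes of the shared RAS and ERK cascade, 0 passed even the looser threshold with the block, and their log2 fold changes without it ran from -0.25 to 0.26. Mapk3, the highest of them, had 261, 256 and 263 CPM in the sham libraries and 262, 265 and 271 in the PNX ones.

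Of 10 immediate targets of ERK, 0 were called, and 1 was higher and 2 were lower at the looser threshold with the block. The shares of all genes were 11.5% and 10.1%. Myc was higher (log2 fold change 0.47 ± 0.08, adjusted p = 0.00687), and Ier3 and Egr3 were lower (-0.79 ± 0.10 and -0.40 ± 0.08, adjusted p = 0.00194 and 0.0130), all named after their values were seen. Fos, the highest of the list, did not pass (-0.13 ± 0.11, adjusted p = 0.456).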

How the data were processed

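The authors deposited, for each of the 6 libraries, the count, FPKM and TPM of each RefSeq transcript. The submitters' processing notes name STAR and mm10, and the counting rule is not given in the sources used here. Some transcripts of a gene carry identical counts, so reads shared by transcripts were evidently counted on each. Counts were summed per symbol. The deposited TPM served only to order levels per length and the deposited FPKM was not used.

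Tests used the quasi-likelihood method of edgeR 4.0.16 (R 4.3.3) on 4 samples, replicates 1 and 2 of a group being summed. Genes were filtered with filterByExpr and libraries scaled with TMM, with Benjamini-Hochberg adjustment over all genes that were tested. DESeq2 1.42.0 and limma 3.58.1 (voom) served as alternatives. DESeq2 was run without filterByExpr, and its shares are of all genes with a p-value. Nothing says that libraries of a group were independent beyond the pooling of different mice, so p-values measure the spread between these samples. With 2 against 2 samples, an exact two-sided permutation test cannot go below p = 0.333, and with 3 against 3 not below 0.1. The numbers pair the groups by deposit: across 14156 genes, the deviations of same-numbered libraries from their group means correlated (r = 0.692, 0.687 and 0.753). Replicates 1 and 2 of a group were nearly alike, so these r values are not independent of each other. They largely repeat the difference between deposits, which correlated between sham and PNX with r = 0.753. In edgeR the biological coefficient of variation was 0.236 without and 0.0973 with the block. The block leaves 1 residual degree of freedom before moderation. The standard error is the log2 fold change divided by the square root of F.

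Members described in full had a mean of at least 10 CPM (summed over transcripts), or at least 50 counts, no overlap of the groups and an absolute log2 fold change above 1. Of the lists, the called genes and the gene with the highest mean CPM were described. The members and lists were chosen with earlier results of these data known. Positions are RefSeq on GRCm38.p6, and overlaps are from GENCODE vM21. Promoters were found for 36 of 50 members. Scripts were tested on simulated data.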

Additional observations from a re-analysis of the deposited data

How the results depend on the processing

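The numbers pair the samples by deposit, and the replicate block moved the counts of calls from 0 to 849 genes, 2 members and 4 signalling genes. With the block and other scalings 624 (DESeq2 size factors), 646 (upper quartile) and 629 (library size) genes were called, of which 86.5%, 84.8% and 87.4% were higher, against 76.0% with TMM; with the block in DESeq2 815, with the transcript of highest total 727 and without the filter 985. All of these called 2 members and 4 signalling genes. At an adjusted p under 0.05 the block gave 3584 genes, 11 members and 16 signalling genes. Without the block, DESeq2 called 587 genes, 2 members and 4 signalling genes. The 6 libraries as separate replicates gave 409 genes in edgeR, 927 in DESeq2 and 920 with the block, each with 1 member (Fgf23), and 3 (without Flrt2), 4 and 4 signalling genes. Replicates 1 and 2 alone, which differ by little more than counting error, gave 1203 genes, 1 member and 4 signalling genes. Leaving out replicate 1 or 2 of a group gave 0 genes without the block. With it, 485 to 863 were called (671 without sham replicate 1 and 668 without sham replicate 2). With the block, members ranged from 0 to 2, and each of these fits called the same 4 signalling genes, Errfi1, Etv4, Fgfbp1 and Flrt2. The replicate that stayed differs from the one left out by little more than counting error, so these fits removed no independent sample. Replicate 3 was not left out with the block. Without the block, leaving it out leaves 1 sample in its group, and only effect sizes are given. With the block, 485 genes and 0 members were called without PNX replicate 1. The fits with the replicates 1 and 2 of a group left out together, with the block and another gene set or transcript, and with the block and the looser threshold were added after the data were seen.

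Of 588 alternatives for the 19 members described in full, 539 kept direction and side of the threshold, 24 passed it (14 for Fgf23 and 10 for Erbb3), and 25 reversed direction in 8 members, 0 of them called. Fgf1 (-0.26 on the log2 scale) became 0.067, Fgfr3 (-0.27) 0.037, Fgfrl1 (-0.06) 0.063, Fgf11 (-0.07) 0.015 and Pdgfa (-0.03) 0.452 without sham replicates 1 and 2. Hbegf (0.13) became -0.329 and Met (-0.13) 0.072 without PNX replicates 1 and 2. With the 6 libraries, Fgf11, Pdgfa and Pdgfrb (-0.12) were 0.0061, 0.0097 and 0.0078 in edgeR and 0.0024, 0.0027 and 0.0042 in DESeq2, and Pdgfrb 0.029 with the replicate block. With replicates 1 and 2 alone, Fgf11, Fgfrl1, Pdgfa and Pdgfrb were 0.113, 0.015, 0.049 and 0.274. Leaving out 1 library without the block, Fgf11 ranged from -0.138 to 0.1697, Fgfrl1 from -0.174 to 0.115, Pdgfa from -0.369 to 0.377, Met from -0.362 to 0.027 and Pdgfrb from -0.124 to 0.164. Other values kept their direction but moved by over 1.5 times when replicate 3 of a group was left out. Without PNX replicate 3, Fgfr3 was -0.0063, Fgfr4 (-0.54) -0.10, Fgf1 -0.14, Pdgfra (-0.45) -0.11, Erbb2 (-0.15) -0.06, Egfr (0.65) 0.43 and Hbegf 0.48. Without sham replicate 3, Fgfr3 was -0.51, Fgf1 -0.51, Erbb2 -0.25, Hgf (-0.45) -0.24 and Hbegf 0.07. The cause was not tested. Depth limited the members under 1 CPM, Fgf23 among them.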
